A study of Mus musculus with 12 samples.

Results

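The 9 genes followed here were Plec, Dst, Col17a1, Itga6, Itgb4, Itga3, Itgb1, Lama3 and Lamb3. They encode the plaque, transmembrane and ligand proteins that anchor the epidermis, and were chosen by name from among 21887 annotated protein-coding genes. Each was described by the ESRP1 contact sites between its ends in the GRCm38 annotation and on its own strand. A region here is a run of sites of 1 list with steps of at most 10 nt, and a union region links those runs of the 3 lists that come within 10 nt of each other. The 9 genes held 94 union regions, of 45738 in the whole series and 32212 on protein-coding genes. They rested on 340 sites, 110 in list 1, 91 in list 2 and 139 in list 3.

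Hemidesmosomes are the plaques that fix basal keratinocytes to the basement membrane. On the inside of the cell the plakin proteins plectin (Plec) and BP230 (made from Dst) tie keratin filaments to the plaque. Integrin α6β4 and the transmembrane collagen XVII (Col17a1) cross the membrane, and laminin-332 is the extracellular ligand of integrin α6β4 and of integrin α3β1, which lies outside the plaque. ESRP1 is an epithelial RNA-binding protein known for setting the choice of alternative exons, and it prefers UGG-rich RNA.

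The sites came from eCLIP, in which ultraviolet light fixes a protein to RNA and reverse transcription tends to stop at the fixed nucleotide. All 12 libraries were made from back-skin epidermis of Esrp1FLAG/FLAG mouse pups on postnatal day 1, so the tagged allele was shared by every library, and an untagged control was not analysed here. The 6 FLAG eCLIP libraries were immunoprecipitated with an anti-FLAG antibody, and the 6 input libraries had no antibody. Material between 75 and 140 kDa was cut from the membrane for both. The authors called sites on pairs of replicates with input, so that list 1 stands for replicates 1 and 2, list 2 for replicates 3 and 4, and list 3 for replicates 5 and 6.

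The lists held 73602, 40014 and 53864 sites in all. Since read numbers are not in them, library depth is unknown, and a gene without a site cannot be told apart from a gene with too few reads to call one. They do not measure expression either, so the epidermal label could not be checked against marker levels. The score attached to a site is the authors' own value with no stated scale. Scores are printed as deposited, and since their scale may differ between lists, lists are set against each other only by percentile, the rank of a score within its own list. No per-library values were available to test, so every comparison below is a description with its spread over the 3 lists.

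ESRP1 contacts recurred on 6 of the 9 genes: Plec, Col17a1, Lama3, Itga6, Dst and Itgb1 each had at least 1 region found in all 3 lists. Itgb4, Itga3 and Lamb3 had none. The background was 17.0% of 21887 protein-coding genes, 27.1% of the 7079 protein-coding genes with a span at least as long as the shortest of the 9, and 48.8% of the 7607 with a site in any list. All 9 genes were longer than the median protein-coding gene, their median span being 49526 nt, against 17169 nt for protein-coding genes. Long genes offer more room for sites, and expression could not be matched.

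The 9 genes held 20 regions found in all 3 lists, 17 found in 2 lists and 57 found in 1 list. The share in all 3 lists was 21.3% (95% exact binomial interval 13.5 to 30.9, counting error only), against 18.9% (18.5 to 19.3) over all protein-coding genes, and the intervals overlapped. The share was higher when agreement of only 2 lists was asked for, at 34.5% without list 1, 35.7% without list 2 and 31.4% without list 3. Asking fewer lists to agree raises the share by construction. These shares were not computed over protein-coding genes, so they say nothing particular about the 9 genes. Plec, Col17a1 and Lama3 carried 80.0% of the regions found in all 3 lists and 75.3% of all sites in these genes.

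**Figure D1:**
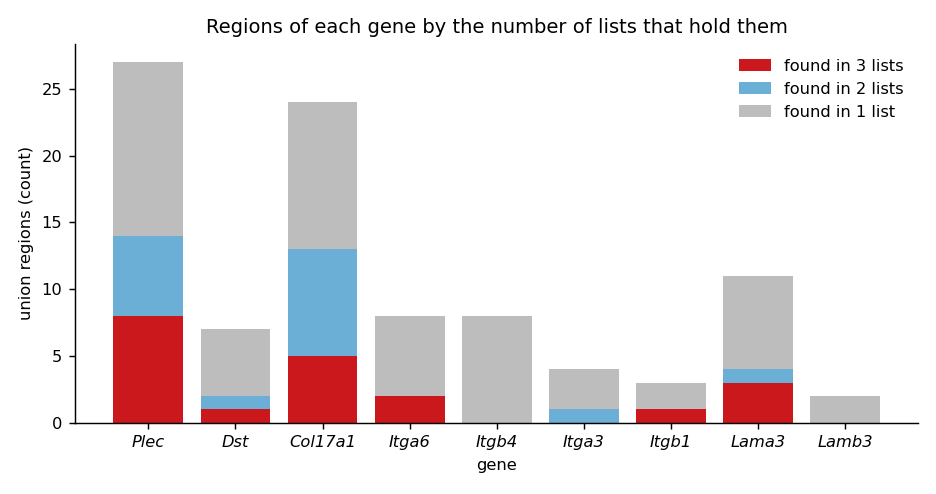
Union regions of each gene (count, vertical axis), stacked by the number of lists that hold them. Plec has 8 regions found in 3 lists and Col17a1 has 5, while the bars of Itgb4, Itga3 and Lamb3 have none.

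The level of contact differed widely among the genes of this adhesion complex. To allow for list size, sites were expressed per 10000 sites of their list. Col17a1 had 4.35, 6.50 and 9.10 in lists 1, 2 and 3, a mean of 6.65 ± 2.38 (SD, n = 3 lists). Plec had 4.48, 6.00 and 6.50, a mean of 5.66 ± 1.05. Lama3 followed with 2.72, 4.75 and 3.34, a mean of 3.60 ± 1.04. The ranges over the lists overlapped between Col17a1 and Plec and between Plec and Lama3.

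Lama3 and the next gene, Dst, did not overlap: the lowest Lama3 value was 2.72 and the highest Dst value 1.77. Dst averaged 1.54 ± 0.37, Itga6 1.51 ± 0.71 and Itgb1 0.843 ± 0.557. Itgb4 averaged 0.726 ± 0.649, Itga3 0.462 ± 0.581 and Lamb3 0.167 ± 0.289. From Dst downwards each gene overlapped its neighbour in the order.

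**Figure D2:**
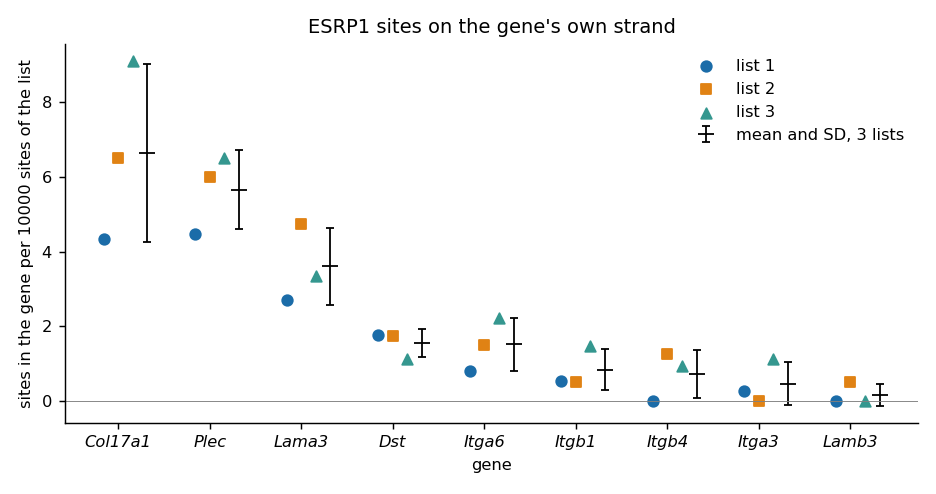
Sites on each gene's own strand per 10000 sites of the list (vertical axis), with a point for each of the 3 lists and a bar for the mean and SD. Col17a1, Plec and Lama3 lie above all values of the other genes, whose highest value is 2.23 in Itga6.

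Per length of gene the order changed, because Dst and Lama3 are far longer than the rest. Col17a1 had 78.0 ± 26.1 sites per 100 kb of span and Plec 50.8 ± 9.70 (SD, n = 3 lists). Itga6 had 11.2 ± 4.84, Itgb4 9.89 ± 8.57, Itgb1 9.74 ± 6.37, Itga3 8.24 ± 9.44 and Lama3 7.61 ± 0.40. Dst, with a span of 400775 nt, had 2.16 ± 0.94, and Lamb3 had 1.35 ± 2.33. Spans include introns, and exon lengths were not used.

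Plec encodes plectin, the cytolinker that binds keratin filaments to integrin β4. Its span runs from 76170974 to 76231378 on the minus strand of chromosome 15. It held 33, 24 and 35 sites in lists 1, 2 and 3, forming 14, 19 and 17 regions. Of the 21887 protein-coding genes, 15 had at least its 8 regions found in all 3 lists, Plec included. Without list 1 it had 11 regions found in both remaining lists, without list 2 it had 10 and without list 3 it had 9.

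Most Plec contacts lay in the 3′ part of the gene. Of the 8 regions found in all 3 lists, 7 fell in a stretch of 10341 nt, from 76176160 to 76186500, which is 17.1% of the span. That stretch held 75.8% of Plec sites in list 1, 70.8% in list 2 and 82.9% in list 3. Its bounds were drawn from these same sites, at the outermost of the 7 regions, so a high share follows in part from that choice. Of the 27 union regions, 21 lay in the 3′ 50% of the span. Between the stretch and the remaining region found in all 3 lists lay 26346 bases, and gaps below likewise count the bases in between.

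The highest-ranked Plec region covered 76176160 to 76176161, 5186 nt from the 3′ end. Its 2 nucleotides were called in every list. At 76176160 the scores were 96.5, 43.6 and 87.6 in lists 1, 2 and 3, and at 76176161 they were 85.4, 43.6 and 78.1. Within their lists the highest scores reached the percentiles 93.0, 87.4 and 92.2 among regions, so the region ranked high among all regions of each list. Of the 6087 regions found in all 3 lists on protein-coding genes, 939 (15.4%) had a mean percentile at least as high.

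A close group of 3 Plec regions followed at 76179509 to 76179512, 76179523 to 76179524 and 76179545 to 76179548, with 10 and 20 bases lying between them. Joining went by the difference of positions, which is 1 more than the bases in between, so these regions stayed apart. Their mean percentiles over the lists were 48.0, 66.5 and 51.2. Their highest scores were 31.7, 6.70 and 19.2 in the first, 24.3, 24.5 and 30.9 in the second and 6.06, 22.3 and 26.1 in the last. At 76180207 to 76180214 the highest scores were 61.2, 18.1 and 44.7. The regions at 76183776 and 76186496 had highest scores of 30.6, 18.9 and 37.4, and of 28.9, 19.1 and 28.5. When lists had to agree within 50 nt, neighbouring regions merged and Plec had 6 in all 3 lists, as it did for the top-scoring 50% of sites.

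The Plec region far from this stretch, at 76212847 to 76212861, held highest scores of 130, 15 and 44.0 in lists 1, 2 and 3, at the percentiles 96.4, 48.3 and 76.3 among the regions of their lists. It ranked higher in list 1 than in list 2. In lists 1 and 2 the highest score was at 76212861, and in list 3 it was 13 nt away at 76212848. The nucleotide 76212861 was called in all 3 lists. Near the 5′ end, at 76231218 to 76231225 and 153 nt from the end of the span, sites were called in lists 1 and 2 but not in list 3, with highest scores of 15.6 and 1.21.

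Dst encodes the second plakin of the complex, with an epithelial form, BP230, that is made from its own promoter. Its span runs from 33907888 to 34308662 on the plus strand of chromosome 1. It held 13, 7 and 6 sites in lists 1, 2 and 3. A single region, 34177399 to 34177417, was found in all 3 lists, with 7, 3 and 4 sites.

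The Dst region had highest scores of 42.6, 124 and 56.4, at the percentiles 78.5, 98.1 and 83.6 among all regions of their lists. The nucleotides 34177401 and 34177409 were called in every list. At 34177401 the scores were 41.0, 40.0 and 56.4, at the percentiles 82.0, 84.7 and 85.2 among the sites of their lists. At 34177409 they were 41.9, 124 and 38.4, at the percentiles 82.3, 97.7 and 74.9 among sites, so list 2 ranked it highest. RefSeq places starts of Dst transcripts at 34011595 and 34160260, and the region lies 17139 nt downstream of the second start. Of the 7 union regions of Dst, 5 lay downstream of that start and 2 upstream.

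The Dst region also lies inside the span of Gm26788, a long noncoding RNA gene running from 34165845 to 34178164, whose strand is not in the tables used. The region could belong to either transcript. A further Dst region, 34264353 to 34264362, was found in lists 1 and 2 only, with highest scores of 12.9 and 39.7. The remaining 5 regions were each a single site of a single list, with scores between 4.07 and 8.29.

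Col17a1 encodes collagen XVII (BP180), the transmembrane collagen of the hemidesmosome. Its span runs from 47646341 to 47692042 on the minus strand of chromosome 19. It held 32, 26 and 49 sites in lists 1, 2 and 3, in 8, 14 and 21 regions. Its total of 107 was above the 92 of Plec, although Plec had 1 site more in list 1. List 3 was therefore the highest and list 2 the lowest in sites, while list 1 was the lowest in regions.

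All 5 Col17a1 regions found in all 3 lists lay between 47660833 and 47667713, a stretch of 6881 nt in the middle of the gene that makes up 15.1% of its span. It held 71.9%, 80.8% and 65.3% of Col17a1 sites in lists 1, 2 and 3. As for Plec, the bounds were drawn from these same sites, so a high share follows in part from that choice. Gaps between these regions ran from 761 to 2968 nt. The nearest of the 5 to the 3′ end lay 14492 nt from it.

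The highest-ranked Col17a1 region, 47667695 to 47667713, had highest scores of 86.1, 46.6 and 81.4, at the percentiles 91.3, 88.5 and 91.2. Of the 6087 regions found in all 3 lists on protein-coding genes, 992 (16.3%) had a mean percentile at least as high. Next to this Col17a1 region, 47666663 to 47666675 had 26.1, 33.0 and 98.0, at the percentiles 65.6, 81.6 and 93.9, so list 3 ranked it highest. At 47665896 to 47665901 they were 62.6, 20.9 and 42.3. At 47660833 to 47660842 they were 10.8, 28.2 and 14.8. The lowest-ranked of the 5 by mean percentile, at 47663811 to 47663832, had 10.2, 0.056 and 32.6, and no single nucleotide of it was called in every list.

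Of the 9 genes, Col17a1 gained the most regions when list 1 was left out. In addition to its 5 regions in all 3 lists, it had 6 that were found in lists 2 and 3 but not in list 1, and 2 found in lists 1 and 3. Without list 1 it had 11 regions found in both remaining lists, without list 2 it had 7 and without list 3 it had 5. For the top-scoring 50% of sites it had 3. A region at 47669384 to 47669411 held 8 sites in list 1 with a highest score of 94.5, 1 site in list 3 with 35.7 and no site in list 2.

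**Figure D3:**
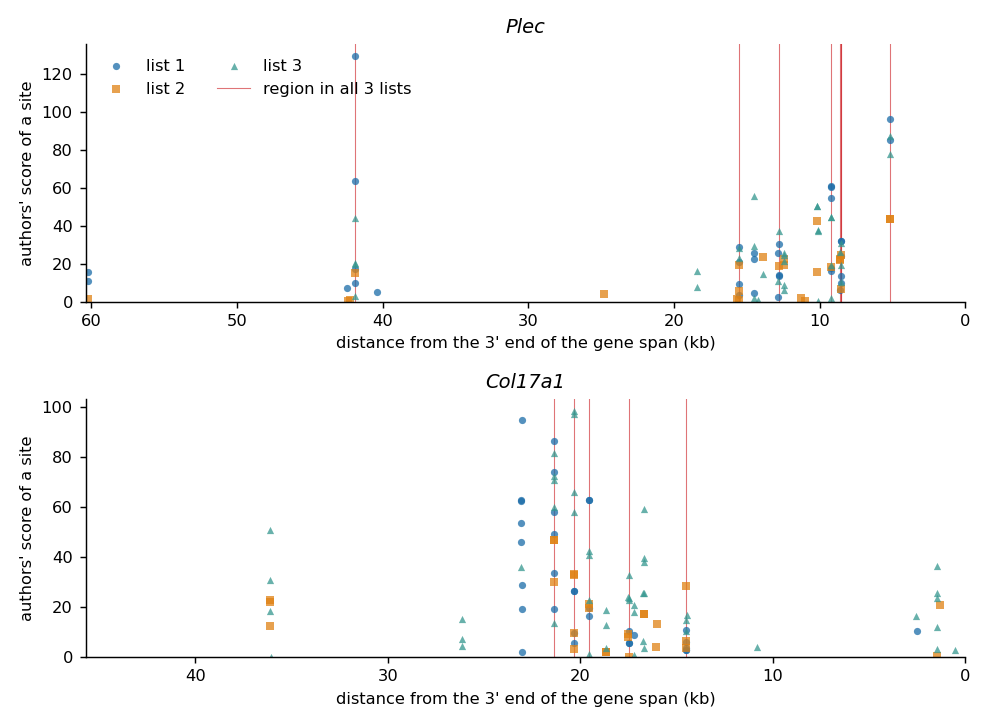
Authors' score of each site (vertical axis) against its distance from the 3′ end of the gene span in kb (horizontal axis) for Plec and Col17a1, with red lines at regions found in all 3 lists. In Plec, 7 of 8 lines fall in a stretch of 10341 nt in the 3′ part, and in Col17a1 all 5 fall in a stretch of 6881 nt in the middle of the gene.

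Integrin subunits carried fewer contacts than Plec and Col17a1. Itga6 encodes α6, the partner of β4 in the hemidesmosome, and lies on the plus strand of chromosome 2, from 71786886 to 71858427. It held 6, 6 and 12 sites in lists 1, 2 and 3 and 2 regions found in all 3 lists. Itgb4, on the plus strand of chromosome 11 from 115974725 to 116008412, held 0, 5 and 5 sites and no region found in more than 1 list.

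The first Itga6 region covered 71826435 to 71826437 in the middle of the gene. At 71826435 the scores were 9.99, 25.3 and 45.8, and at 71826436 they were 16.6, 13.4 and 42.8. Their percentiles among sites were 45.8, 73.2 and 80.1 at the first nucleotide and 59.8, 47.1 and 78.2 at the second, so list 3 ranked both highest. The other region, 71858018 to 71858029, lay 398 nt from the 3′ end of the span. At 71858018 its scores were 15.6, 59.8 and 35.2, and at 71858019 they were 20.7, 16.7 and 10.2. Itga6 had 2 regions in all lists under each of the 10 other settings tried.

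In Itgb4, 4 of the 5 sites of list 2 lay between 115988478 and 115993525, inside the span of the long noncoding RNA gene B230344G16Rik, which runs from 115987998 to 115993715 and whose strand is not in the tables used. The fifth lay at 116002332, and the list 3 sites lay between 116000352 and 116000394. The highest score was 15.9 in list 2 and 18.3 in list 3, close to the medians of those lists, 14.7 and 17.7.

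Itgb1 encodes β1, the common partner of many alpha subunits, and Itga3 encodes α3, its laminin-binding partner in keratinocytes. Itgb1 lies on the plus strand of chromosome 8, from 128685654 to 128733579, and held 4, 2 and 8 sites. Its single region found in all 3 lists, 128732154 to 128732160, lay 1419 nt from the 3′ end of the span. At 128732158 the scores were 22.8, 29.4 and 14.4, and at 128732160 they were 11.5, 29.2 and 84.0. Their percentiles among sites were 68.3, 77.7 and 44.1 at the first nucleotide and 49.7, 77.6 and 92.5 at the second, so list 3 ranked the first lowest and the second highest. Itgb1 had this single region in all lists under each of the 10 other settings tried.

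Itga3 lies on the minus strand of chromosome 11, from 95044475 to 95076844, and held 2, 0 and 6 sites. Its region at 95046967 to 95046985, 2492 nt from the 3′ end, was found in lists 1 and 3, with highest scores of 0.804 and 17.1. The list 1 score was at the percentile 5.06 of its list. Without list 2, Itga3 thus had 1 region found in both remaining lists. A pair of list 3 sites lay 144 and 185 nt from the 3′ end, with scores of 7.88 and 0.171.

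Of the laminin-332 chains, Lama3 encodes the α3 chain and runs from 12333417 to 12583013 on the plus strand of chromosome 18. Its sites numbered 20, 19 and 18 in lists 1, 2 and 3, the most even raw counts of the 9 genes. Per 10000 sites of each list these were 2.72, 4.75 and 3.34, which is less even, since the lists differ in size. Lama3 had 3 regions found in all 3 lists, far apart from each other, with gaps of 138055 and 69955 nt. Lamb3 encodes the β3 chain and held 0, 2 and 0 sites.

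The Lama3 region at 12366202 to 12366212 had the highest mean percentile of the 20 regions found in all 3 lists. Its highest scores of 252, 194 and 274 lay at the percentiles 99.2, 99.4 and 99.7 of their lists, and 23 of 6087 regions found in all 3 lists on protein-coding genes had a mean percentile at least as high. It held 9, 6 and 8 sites, and 6 nucleotides were called in every list. The highest score fell on the same nucleotide, 12366203, in each list. At the neighbouring 12366202 the scores were 228, 160 and 240, and at 12366204 they were 247, 95.1 and 254.

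This Lama3 region lay 32785 nt from the 5′ end, at 13.1% of the span, and was the most 5′ of the 20 regions found in all 3 lists when position is given as a share of the span. Starts of Lama3 transcripts were not at hand, so which Lama3 transcripts could hold this region is not known. The Lama3 region at 12504268 to 12504284 had highest scores of 33.4, 32.4 and 51.0, all at 12504279. The region at 12574240 to 12574250, 8763 nt from the 3′ end, had 31.4, 43.8 and 22.8, and no single nucleotide of it was called in every list. A further region at 12528389 to 12528394 was found in lists 2 and 3, with 31.0 and 49.5, and had no site in list 1.

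**Figure D4:**
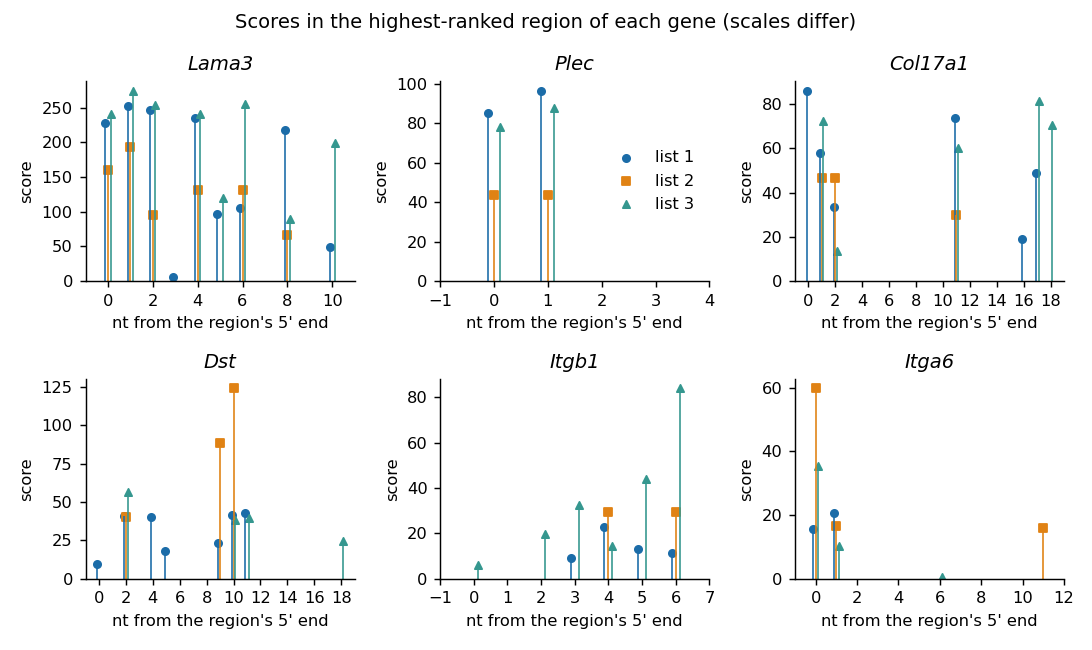
Authors' score (vertical axis, scales differ) at each called nucleotide of the highest-ranked region of the 6 genes with a region in all 3 lists, by distance from the 5′ end of the region in nt. The Lama3 region reaches 252, 194 and 274 in lists 1, 2 and 3, and the highest score of Itgb1 is 84.0, in list 3.

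Lamb3 lies on the plus strand of chromosome 1, from 193294353 to 193343878. Its sites were at 193339522, with a score of 14.2, and at 193343422, with 18.1, both in list 2 only. The second lay 456 nt from the 3′ end of the span and inside the noncoding gene Gm51741, which RefSeq places on the minus strand. It is shown because it is the only site in these 9 genes for which bases were at hand, in a RefSeq start window of Gm51741 (GRCm38.p6). The bases are those of the Lamb3 strand at chr1:193343408-193343436, with the called nucleotide in capitals.
Lamb3 site, list 2: tatcatgctgcgctCtgcagacctgtcgg
This stretch of 29 nt holds neither GGT nor TGG on the Lamb3 strand. For scale, GGT or TGG was present in the 29 nt around 91.5%, 88.7% and 89.4% of the 974, 558 and 942 sites of lists 1, 2 and 3 in RefSeq start windows, and in 53.9% of 328510 adjacent stretches of 29 nt from all such windows on the gene strand. GGT and TGG can overlap as in TGGT, and neighbouring sites share bases, so these shares are descriptions.

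Of the 20 regions found in all 3 lists, 18 lay in the 3′ 50% of the span (90%, 95% exact binomial interval 68.3 to 98.8), against 67.0% (65.8 to 68.2) of such regions over protein-coding genes. The grouped regions of Plec and Col17a1 made up 12 of these 18, so the interval, which takes regions as independent, is too narrow. None lay in the first 10% of the span (0 of 20, interval up to 16.8%), against 13.0% over protein-coding genes. At the very end, 1 of 20 lay in the last 1000 nt (5.0%, 95% exact binomial interval 0.127 to 24.9), the Itga6 region, against 22.0% (21.0 to 23.0) over protein-coding genes. In the last 2000 nt there were 2 of 20 (10%, 1.23 to 31.7), the Itga6 and Itgb1 regions, against 32.8% (31.6 to 34). With 20 regions, several of which share a gene, the interval in the last 2000 nt ended just under the value of all protein-coding genes. The interval in the last 1000 nt included it. A window of fixed length covers a smaller part of a longer gene, and each of the 9 exceeded the median protein-coding span. The protein-coding shares in these windows were not matched for gene length. Whether the lower shares here go beyond gene length was not tested. RefSeq start windows, short stretches around annotated transcript starts, numbered 8 for the 5 genes Dst, Lamb3, Itgb1, Itga3 and Col17a1. No site of these 5 genes lay in them. Plec, Itga6, Itgb4 and Lama3 have no such window, so their sites could not count. The windows of Col17a1 and Itgb1 lie mostly upstream of the span, where sites were not counted, so little was open to a site there.

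**Figure D5:**
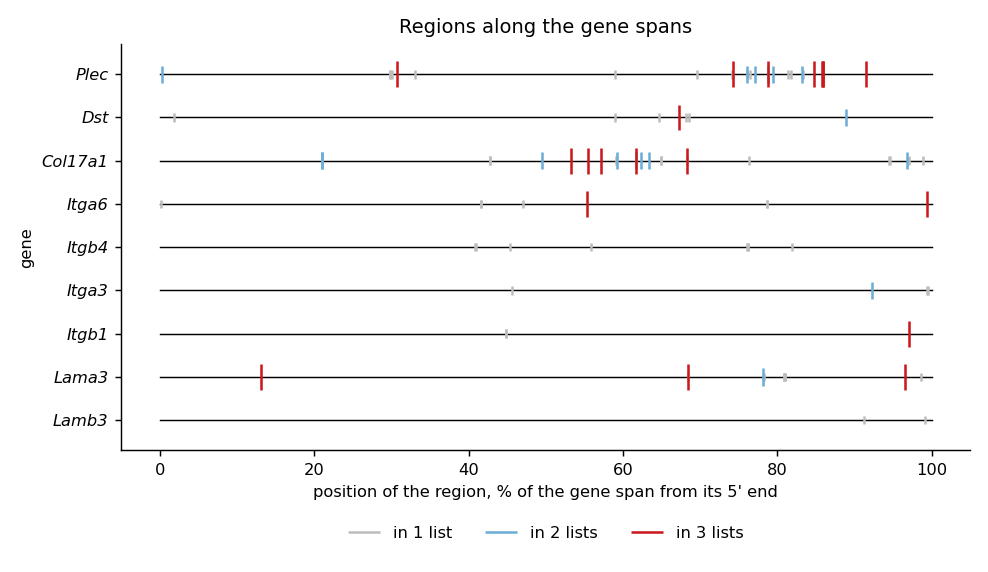
Position of each union region as a percentage of the gene span from its 5′ end (horizontal axis), with 1 line per gene and colour and height by the number of lists. Of the 20 regions found in 3 lists, 18 lie right of 50%, and those of Plec and Col17a1 are grouped.

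The lists also met at single nucleotides of these genes. A called nucleotide was the same in every list in 35 cases. These made up 31.8%, 38.5% and 25.2% of the sites on the 9 genes in lists 1, 2 and 3, a mean of 31.8% ± 6.64 (SD, n = 3 lists). Over protein-coding genes the same share was 17.8%, 33.1% and 22.6%, a mean of 24.5% ± 7.84. The 9 genes were higher in each list, with the widest gap in list 1. The count of shared nucleotides is the same for every list, so each set of shares rests on a single count. The shares differ between lists only through the number of sites in each, and the SDs do not measure a spread in agreement. Plec held 10 of these nucleotides, Col17a1 9, Lama3 8, Itga6 4, and Dst and Itgb1 2 each.

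In 7 of the 20 regions found in all 3 lists the highest score was on the same nucleotide in each list (35.0%, 95% exact binomial interval 15.4 to 59.2), against 34.8% over protein-coding genes. Over the 35 shared nucleotides the scores of the lists had a Spearman rank correlation of 0.65 between lists 1 and 2, 0.60 between lists 1 and 3 and 0.67 between lists 2 and 3. Without the 8 of Lama3 these were 0.41, 0.32 and 0.35 over 27 nucleotides, lower for each pair of lists. These nucleotides share genes and regions and are not independent.

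Regions seen in a single list ranked lower. Their highest scores had a median percentile of 23.2 among the regions of their list, and 50 of 57 were under the percentile 50. Regions found in 2 lists had a median percentile of 58.8 over 34 values, and those found in all 3 lists 72.7 over 60 values. Over protein-coding genes this was computed only for regions found in all 3 lists. Their medians in lists 1, 2 and 3 were 70.7, 75.7 and 75.6 here, against 75.9, 73.6 and 72.0 over protein-coding genes. Whether the lower rank of single-list regions is particular to these genes was not tested. Single-list regions numbered 9 in list 1, 24 in list 2 and 24 in list 3. In these genes list 1, the longest list, held the fewest single-list regions and the smallest share of its sites, 0.149%, against 0.227% in list 2 and 0.258% in list 3. Single-list counts per list were not made over protein-coding genes. Of list 1 union regions here, 61.1% were also in list 2 and 69.4% in list 3, against 44.2% and 51.5% over protein-coding genes. List 1 held 39.3% of list 2 union regions and 42.4% of list 3 union regions here, against 50.8% and 59.9%. The opposite strand held 1 site, in Dst in list 1, in the spans of the 6 genes whose strand was known without the sites. For Itga6, Itgb4 and Lama3 the strand was taken from the sites, so a low opposite count was fixed by that choice.

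Other genes of cell-matrix adhesion, 46 in a list from general knowledge, were looked at beside the 9. Of them, 14 had a region found in all 3 lists (30.4%), with 34 regions in total, and 18 had no site. The background was 17.0% of all protein-coding genes and 27.1% of the long ones. Of the 28 with a site the share was 50%, against 48.8% of protein-coding genes with a site. For the top-scoring 50% of sites 8 of 46 had such a region. Among the hemidesmosome partners 4 of 7 did: Col7a1, the anchoring fibril collagen, had 11 regions, Krt5, the basal keratin, 7, and the plakin genes Eppk1 and Macf1 2 each. Krt14, the keratin partner of Krt5, had no site. The tetraspanin gene Cd151 had 3, 0 and 3 sites in lists 1, 2 and 3 and no region found in all of them.

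Basement membrane genes held such regions in 8 of 16 cases, with few in each. Dag1, encoding dystroglycan, and Col4a5 had 2 each. Lama5, Lamc1, Hspg2, Col4a1, Col4a2 and Fras1 had 1 each. Of 7 other integrin genes none had a region found in all 3 lists and 5 had no site, and Itgb5 had the most sites, 8, 0 and 4. Among 16 focal adhesion genes Ptk2 and Actn4 had 1 region each and 9 genes had no site. Lists and classes were not compared by a test.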

How the data were processed

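Per the labels, eCLIP libraries of FLAG-tagged ESRP1 and inputs were made from mouse epidermis in 6 biological replicates. Per the file headers, the authors called sites on 2 replicates together with input, and deposited 3 lists in which each stranded position carries their score, of unstated scale. A title in the labels names PureCLIP, a site caller. Per the submitters' processing notes, the tools included HOMER, HISAT2 2.1.0 and cutadapt 1.16, and the builds mm10 and GRCm38; their roles are not stated. Calling thresholds and the handling of duplicates and multiply aligned reads were not given in the sources used here; input-based calling or multiply aligned reads can add or remove sites in abundant or repeated genes. Pooling 2 replicates per list hides their spread, so there was no test on libraries, and the input libraries were not analysed here.

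Gene spans came from a RefSeq table of GRCm38.p6, with no exons. The strand was taken from the RefSeq start windows for 17492 of 21887 protein-coding genes, 5 of the 9 among them, from the stated definition for Plec, and otherwise from the strand with most sites (Itga6, Itgb4 and Lama3 among them). A region belonged to a gene when its middle lay in the span on that strand. Coordinates are 1-based on GRCm38. A percentile is the share of a list's regions with a highest score at or below the value. Where sites are named, it is the share of the list's sites with a score at or below the value. The 9 genes, the 46 other genes and all settings were chosen with earlier results of these data known. All 9 genes were named, with each of the 46 that had a region in all 3 lists; the others of the 46 named (Krt14, Cd151 and Itgb5) were picked after their values were seen. The joining steps were checked on simulated data. The motif at regions was not computed for want of genome sequence; the GGT and TGG search in start windows was added after the data were seen. Intervals are Clopper-Pearson (95%) and cover counting error only. Python 3.11.15, pandas 2.3.3, numpy 2.4.6, scipy 1.17.1 and matplotlib 3.10.9 were used.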

Additional observations from a re-analysis of the deposited data

How the results depend on the processing

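The 6 genes with a region found in all lists stayed at 6 under each setting tried, apart from 7 without list 2, when Itga3 was added, and their regions numbered 16 to 20, or 22 to 30 when 1 list was left out. The share of their union regions found in all lists was 34.8% for the top-scoring 50% of sites and 31.4% to 35.7% when 1 list was left out. Agreement of sites was 45.4% when a site of each other list within 2 nt was counted. The other adhesion genes numbered 8 of 46 for the top-scoring 50% of sites and 15 to 20 when 1 list was left out. The background share of protein-coding genes was 15.9% with an overlap of 1 nt, 17.6% within 50 nt, 12.1% for the top-scoring 50% of sites, 18.6% on either strand, 16.4% under no other protein-coding span and 18.2% to 21.0% when 1 list was left out. Leaving out a list asks fewer lists to agree, which raises counts by construction. Without list 3, Dst had 2 regions. No paired analysis was possible because the lists pool 2 replicates each and hold no input values. Depth is unknown, so genes without a region may lack reads.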
